A study of Mus musculus with 84 samples.

Results

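The genes described here are 40 genes of DNA replication and cell division, taken by symbol from a count table of 49671 genes, and all 40 were found in it. They were followed in epididymal fat, liver, skeletal muscle, aorta, heart, hippocampus and hypothalamus of ob/ob and WT mice. Within each tissue there were 4 groups of 3 mice: ob/ob mice on a high-fat diet (HFD), ob/ob mice on a normal diet (ND), WT mice on HFD and WT mice on ND. The ob/ob mouse is the classical genetic obesity model that lacks functional leptin, the hormone by which fat tissue signals energy stores to the brain. The submitters' description has the tissues taken after 20 weeks and does not say whether this is age or time on the diet. Strain, sex and age are not given in the labels, and the same 12 mice gave all 7 tissues, so that 84 RNA-seq libraries were used.

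A cell that commits to division first turns on the genes of the G1/S wave. The transcription factor E2F1 and cyclin E drive the loading and firing of replication origins, and the enzymes of nucleotide supply feed the new DNA strands. A later wave, G2/M, supplies cyclin B and CDK1, the kinases of the spindle and checkpoint, the motors that move chromosomes, and the proteins that cut the cell apart. In adult fat, liver, muscle, heart and brain most cells are not dividing, so transcripts of these genes are usually scarce there. Of the 40 genes, 14 belong to the G1/S wave and 26 to the G2/M wave.

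Library totals lay between 10499528 and 17040790 counts. Levels within a tissue are given as FPKM, the count of a gene divided by its exon length and by the library size after scaling of the libraries within that tissue. The marker of each labelled tissue was higher in its own libraries than anywhere else for Alb in liver, at 49440 to 79400 TPM against at most 1534 TPM elsewhere, for Myh6 in heart and for Agrp in hypothalamus. The other 4 overlapped: Adipoq was 521 to 13430 TPM in epididymal fat and reached 5387 TPM in another tissue. This adipocyte marker was 845 to 1381 FPKM in aorta and 25.5 to 1538 FPKM in muscle, so libraries of both tissues held fat transcripts. Myh11 was 16.5 to 94.2 TPM in aorta against at most 31.2 TPM, Ckm 720 to 18490 TPM in muscle against at most 900.3 TPM, and Prox1 18.2 to 42.9 TPM in hippocampus against at most 38.2 TPM elsewhere. One member could not be studied: Kif11, the motor that pushes spindle poles apart, had 0 to 6 counts per library and none in 58 of 84 libraries, and it passed the filter on low counts in no tissue.

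In epididymal fat the division genes were several-fold higher in ob/ob than in WT mice on ND. Of the 39 members tested, 38 rose and 0 fell, where 25.2% of all genes tested in that comparison rose and 23% fell. The median difference of the members was 2.24 on the log2 scale, or 4.73-fold, against -0.01 for all genes. All 25 G2/M members tested rose, with a median log2 difference of 2.47, and 13 of 14 G1/S members rose, with a median of 1.49. In bulk tissue, more dividing cells and more of these transcripts per cell cannot be told apart.

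The 4 members with the smallest p in fat have different roles. Tpx2, which activates the Aurora A kinase on spindle microtubules, had 5.01, 3.82 and 4.17 FPKM in ob/ob ND fat, against 0.615, 0.592 and 0.532 FPKM in WT ND fat. The lowest ob/ob library was thus far above the highest WT library, and the log2 difference was 2.90 ± 0.18 (SE here and below; adjusted p = 9.45e-07, edgeR quasi-likelihood test). Cyclin B2, encoded by Ccnb2 and a partner of CDK1 at entry into mitosis, had 8.89, 7.04 and 10.1 FPKM in ob/ob ND fat, against 1.20, 1.01 and 1.34 FPKM in WT ND fat. The groups did not overlap, and the log2 difference was 2.86 ± 0.21 (adjusted p = 3.04e-06). Pcna, the sliding clamp that holds DNA polymerase on its template, had 61.95, 49.8 and 52.4 FPKM in ob/ob ND fat, against 17.1, 19.2 and 16.1 FPKM in WT ND fat. It was the most abundant member per length and still separated the groups, with a log2 difference of 1.65 ± 0.13 (adjusted p = 4.53e-06). Bub1, a checkpoint kinase of the kinetochore, had 2.26, 1.60 and 2.16 FPKM in ob/ob ND fat, against 0.183, 0.131 and 0.151 FPKM in WT ND fat. Its log2 difference of 3.67 ± 0.29 was the highest of the members and equals 12.8-fold (adjusted p = 4.54e-06).

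The promoters of 6 members are shown as a description of sequence. Whether their letters bear on the difference between ob/ob and WT fat on ND was not tested. Shown are the 3 G2/M and 3 G1/S members with the smallest p in that comparison among the 33 members in the RefSeq promoter table (build GRCm38.p6). Each window runs from 250 bases before to 50 after the annotated start, in the gene's own direction. Capitals mark the cell-cycle homology region (CHR, TTTGAA or TTCGAA), the E2F core (TTGGCGC or TTCGCGC or TTCCCGC or TTGCCGC) and the CCAAT box, each searched on both strands. The G2/M promoters are Ccnb2 at chr9:70421505-70421804 (minus strand), Bub1 at chr2:127831810-127832109 (minus strand) and Birc5 at chr11:117848987-117849286 (plus strand). The G1/S promoters are Pcna at chr2:132253131-132253430 (minus strand), Rrm2 at chr12:24708004-24708303 (plus strand) and Tk1 at chr11:117825965-117826264 (minus strand).
Ccnb2: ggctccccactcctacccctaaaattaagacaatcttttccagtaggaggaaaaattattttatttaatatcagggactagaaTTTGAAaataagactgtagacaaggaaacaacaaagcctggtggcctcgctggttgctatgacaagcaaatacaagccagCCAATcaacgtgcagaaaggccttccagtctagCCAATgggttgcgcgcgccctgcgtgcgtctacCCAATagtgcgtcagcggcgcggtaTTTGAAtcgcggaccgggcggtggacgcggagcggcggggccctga
Bub1: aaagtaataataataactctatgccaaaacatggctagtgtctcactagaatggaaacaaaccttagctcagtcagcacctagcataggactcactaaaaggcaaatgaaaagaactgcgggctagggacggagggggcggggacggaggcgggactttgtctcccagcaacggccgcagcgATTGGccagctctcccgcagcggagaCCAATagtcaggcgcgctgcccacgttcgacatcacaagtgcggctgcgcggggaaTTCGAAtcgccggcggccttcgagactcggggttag
Birc5: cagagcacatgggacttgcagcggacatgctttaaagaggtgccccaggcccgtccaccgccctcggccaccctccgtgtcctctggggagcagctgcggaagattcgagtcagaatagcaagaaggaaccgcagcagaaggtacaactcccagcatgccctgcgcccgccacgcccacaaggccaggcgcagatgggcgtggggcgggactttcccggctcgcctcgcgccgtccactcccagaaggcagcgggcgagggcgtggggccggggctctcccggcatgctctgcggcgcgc
Pcna: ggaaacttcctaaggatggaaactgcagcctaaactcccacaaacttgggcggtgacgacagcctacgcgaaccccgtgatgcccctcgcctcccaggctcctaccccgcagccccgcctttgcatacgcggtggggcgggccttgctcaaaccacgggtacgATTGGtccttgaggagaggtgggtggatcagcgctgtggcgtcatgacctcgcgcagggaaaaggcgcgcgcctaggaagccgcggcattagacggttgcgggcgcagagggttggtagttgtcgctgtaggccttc
Rrm2: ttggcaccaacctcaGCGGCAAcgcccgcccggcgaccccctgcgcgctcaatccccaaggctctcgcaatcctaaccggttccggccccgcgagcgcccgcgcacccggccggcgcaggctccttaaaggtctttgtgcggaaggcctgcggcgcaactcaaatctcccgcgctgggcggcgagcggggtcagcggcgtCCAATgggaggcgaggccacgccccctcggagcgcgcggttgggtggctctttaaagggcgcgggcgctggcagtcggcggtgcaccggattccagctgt
Tk1: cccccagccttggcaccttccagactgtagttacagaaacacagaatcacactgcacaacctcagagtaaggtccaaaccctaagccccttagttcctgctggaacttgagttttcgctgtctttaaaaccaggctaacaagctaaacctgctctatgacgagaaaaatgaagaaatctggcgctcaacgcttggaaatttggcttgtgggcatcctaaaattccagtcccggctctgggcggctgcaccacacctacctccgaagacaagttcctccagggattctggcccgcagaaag

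The Ccnb2 window holds 2 CHR and 3 CCAAT matches, and the Bub1 window 1 CHR and 2 CCAAT matches. The Pcna window holds 1 CCAAT match, and the Rrm2 window 1 E2F core and 1 CCAAT match. The Birc5 and Tk1 windows hold no match to these letters. Of the 21 G2/M members in the table, 17 held a CHR, 18 a CCAAT box and 16 both. Of the 12 G1/S members, 2 held a CHR, 7 a CCAAT box and 2 both. Over all 27025 promoters of the table, 19.4% held a CHR, 37.9% a CCAAT box and 7.7% both. The E2F core stood in 6 of 12 G1/S windows, 4 of 21 G2/M windows and 9.69% of all windows. These shares describe sequence only, and a match is not a measured binding site. Mcm4, Aurkb, Tpx2, Kif20a, Ccne2, Ccna2 and Foxm1 had no entry in the table.

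By role, the rise in ob/ob ND fat ran through every step of the cycle. All 6 cyclins and CDK1 rose, with a median log2 difference of 2.74 that ran from 1.41 for Ccne1, a cyclin of S-phase entry, to 2.96 for Ccna2, the cyclin of S phase and early mitosis. Both transcription factors rose, by 0.52 ± 0.13 for E2f1 (adjusted p = 0.00579) and 2.33 ± 0.26 for Foxm1, which switches on G2/M genes (adjusted p = 3.77e-05). Both genes of chromatin and topology rose, Mki67, the gene of the Ki-67 antigen that coats mitotic chromosomes, by 3.10 and Top2a, which untangles DNA, by 2.71. The 3 subunits of the chromosomal passenger complex rose by 2.25 for Aurkb, 3.30 for Birc5 and 2.24 for Cdca8. The 4 motor and kinetochore genes tested rose by 1.83 for Kif20a to 2.88 for Cenpe, and the 3 cytokinesis genes by 1.76 for Racgap1 to 2.41 for Prc1, a bundler of spindle microtubules. Cdc20 and Ube2c, which direct the anaphase-promoting complex to its substrates, rose by 1.89 and 1.72. The kinases Plk1 and Aurka rose by 2.61 and 1.75, the checkpoint gene Bub1b by 1.98 and the microtubule binder Nusap1 by 2.41.

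In nucleotide supply Rrm2, a subunit of ribonucleotide reductase, rose by 2.80, the thymidine kinase gene Tk1 by 2.83 and the thymidylate synthase gene Tyms by 1.03 on the log2 scale. Among the 7 licensing and helicase genes, 6 rose, with a median of 1.27 over all 7. Mcm5 had the largest difference at 2.04, then Mcm2 at 1.60, Mcm6 at 1.57, Mcm3 at 1.27, Cdc6 at 1.13 and Mcm4 at 0.64. Mcm7, a subunit of the same hexameric helicase, had 7.26, 7.08 and 8.56 FPKM in ob/ob ND fat and 6.76, 6.90 and 6.67 FPKM in WT ND fat. The ranges did not overlap, but the log2 difference of 0.17 ± 0.15 did not pass the threshold (adjusted p = 0.354). The annotated span of Mcm7 overlaps the opposite-strand genes Cops6 and Ap4m1, and counting used no strand. Where exons overlap, their reads cannot be told apart from those of Mcm7, and exon overlap was not examined. Cdc6, which loads the helicase at origins, was the 1 called member with overlapping groups, at 0.500, 0.304 and 0.775 FPKM in ob/ob ND fat against 0.336, 0.187 and 0.196 FPKM in WT ND fat. Its call (adjusted p = 0.0248) was lost on leaving out any of 4 of the 12 fat libraries in turn, with adjusted p up to 0.112. Of the 29 members tested that overlap no coding gene on the opposite strand, 29 rose.

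**Figure D1:**
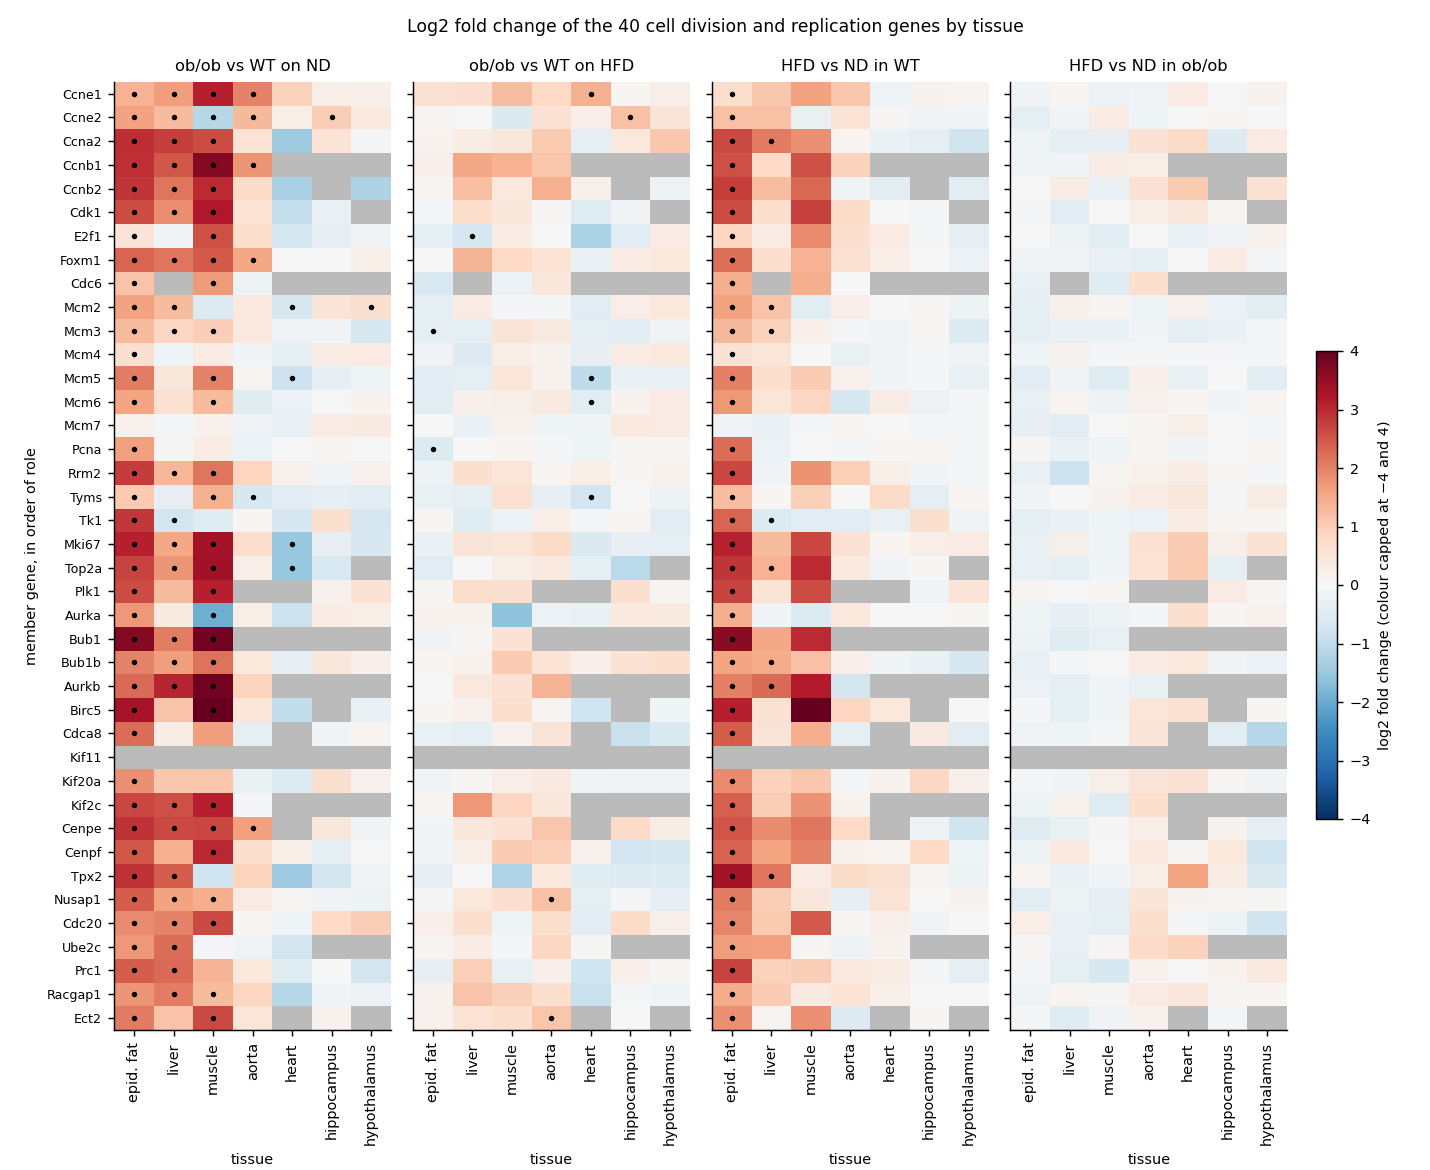
Log2 fold change of each of the 40 genes (rows, by role) in each tissue (columns), for 4 comparisons; a dot marks an adjusted p under 0.05 and grey a gene not tested. Epididymal fat holds 38 dots for ob/ob against WT on ND and 38 for HFD against ND in WT mice, but 2 for ob/ob against WT on HFD and none for HFD against ND in ob/ob mice.

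The high-fat diet moved the same gene group in WT fat. Of 39 members tested, 38 were higher on HFD than on ND and 0 lower, against 28.6% and 30.3% of all genes. The median log2 difference was 2.07, or 4.20-fold, with 2.42 for the 25 G2/M members and 1.37 for the 14 G1/S members. Because this comparison and that of genotype on ND share the 3 WT ND libraries, their values are set side by side and are not 2 independent results. Tpx2 had 4.56, 6.86 and 5.91 FPKM in WT HFD fat against the WT ND values above, a log2 difference of 3.31 ± 0.18 (adjusted p = 2.46e-07). Pcna had 93.3, 85.2 and 69.5 FPKM in WT HFD fat, a log2 difference of 2.24 ± 0.13 (adjusted p = 3.81e-07). Prc1 had 1.90, 2.81 and 2.39 FPKM in WT HFD fat, against 0.437, 0.297 and 0.365 FPKM in WT ND fat. It rose by 2.69 ± 0.20 (adjusted p = 1.7e-06), and Ccnb2 by 2.77 ± 0.21 (adjusted p = 2.17e-06). For these genes no HFD library overlapped an ND library of WT fat.

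Bub1 had the highest log2 difference under the diet too, at 3.61, and Mcm7 the lowest, at -0.13 ± 0.15 (adjusted p = 0.472). By role, the medians of the log2 difference in WT mice were 2.58 for cyclins and CDK1, 2.97 for chromatin and topology, 2.42 for the passenger complex and 1.44 for licensing and helicase. The lowest called members were Mcm4 at 0.59, Ccne1 at 0.71 and E2f1 at 0.86. Of the 29 members with no coding gene on the opposite strand, 29 rose. WT HFD mouse 1 was the lowest of its group for most mitotic genes: the summed level of the G2/M members was 65.01 FPKM there and 106.1 and 104.0 FPKM in the other WT HFD mice. Leaving out any 1 of the 12 libraries kept 38 called members.

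In ob/ob fat the diet made no called difference. None of the 39 members passed for HFD against ND in ob/ob mice by edgeR or by DESeq2, with 4 at an unadjusted p under 0.05, and 0% of all genes passed in either direction. The median log2 difference was -0.18 and the members ran from -0.48 to 0.26. Tpx2 had 4.37, 4.43 and 5.01 FPKM in ob/ob HFD fat, against 5.01, 3.82 and 4.17 FPKM in ob/ob ND fat. Bub1 had 1.53, 1.83 and 1.81 FPKM in ob/ob HFD fat, against 2.26, 1.60 and 2.16 FPKM in ob/ob ND fat. The groups overlapped for both genes.

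The diet effect therefore differed between genotypes. The interaction, taken as the log2 diet difference of ob/ob mice less that of WT mice, was called for 37 of 39 members, all negative, where 19.4% of all genes had a called positive and 20.7% a called negative interaction. The median log2 interaction of the members was -2.33, with -2.58 for the G2/M and -1.70 for the G1/S genes. It was -3.23 ± 0.23 for Tpx2 (adjusted p = 5.9e-06), -2.20 ± 0.18 for Pcna (adjusted p = 1.28e-05), -2.74 ± 0.26 for Prc1 (adjusted p = 3.56e-05) and -3.82 ± 0.37 for Bub1 (adjusted p = 3.71e-05). The members that did not pass were Mcm7 at -0.20 ± 0.21 (adjusted p = 0.476) and Ccne1 at -0.80 ± 0.30 (adjusted p = 0.0528).

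On HFD, few members differed between ob/ob and WT fat. Of 39 members, 0 were higher and 2 lower in ob/ob mice, against 10.1% and 7.5% of all genes, and the median log2 difference was -0.07. Both called members were replication genes. Pcna had 52.9, 59.7 and 56.7 FPKM in ob/ob HFD fat, against 93.3, 85.2 and 69.5 FPKM in WT HFD fat, a log2 difference of -0.55 ± 0.13 (adjusted p = 0.0166). Mcm3, another helicase subunit, had 7.42, 6.91 and 6.81 FPKM in ob/ob HFD fat, against 7.60, 9.08 and 11.02 FPKM in WT HFD fat, a log2 difference of -0.39 ± 0.12 (adjusted p = 0.0485). Neither pair of groups overlapped. The count fell to 0 without ob/ob HFD mouse 1, ob/ob HFD mouse 3 or WT HFD mouse 2, and to 1 without ob/ob ND mouse 3 or WT ND mouse 1. The 37 members not called were not shown to be equal: for Tpx2 the log2 difference was -0.33 ± 0.15 and for Ccnb2 0.09 ± 0.18.

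**Figure D2:**
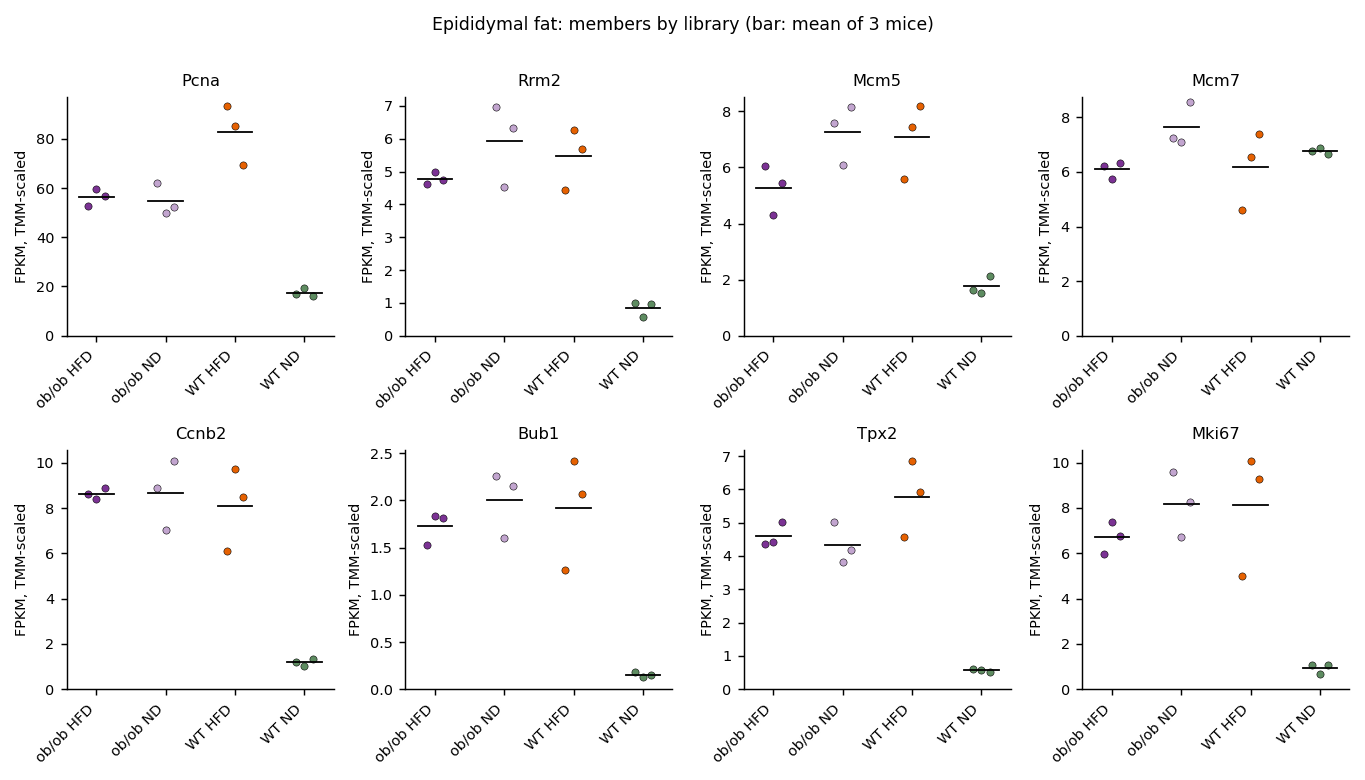
FPKM of 8 division genes in each library of epididymal fat (points; bars are means of 3 mice) for ob/ob HFD, ob/ob ND, WT HFD and WT ND mice. All but Mcm7 lie lowest in WT ND mice, and Pcna is highest in WT HFD mice at 69.5 to 93.3 FPKM.

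Markers of macrophages moved with the division genes in fat, and markers of adipocytes moved against them. Of 14 macrophage markers, 13 were higher and 1 lower in ob/ob than in WT fat on ND, against 25.2% and 23% of all genes. Likewise 13 were higher and 1 lower on HFD than on ND in WT fat, against 28.6% and 30.3% of all genes. The summed level of the macrophage markers was 6490 to 9400 FPKM in ob/ob HFD, 5060 to 8590 FPKM in ob/ob ND, 7570 to 14500 FPKM in WT HFD and 1710 to 1850 FPKM in WT ND mice. Of 7 adipocyte markers, 5 were lower in ob/ob than in WT fat on ND, and 6 lower on HFD than on ND in WT fat, with none higher in either. Their sum was 5200 to 6630 FPKM in ob/ob HFD, 4640 to 6770 FPKM in ob/ob ND, 1340 to 4250 FPKM in WT HFD and 11300 to 14600 FPKM in WT ND mice. Of 9 T cell markers, 7 were higher in ob/ob than in WT fat on ND and 0 lower. Of 6 thymocyte markers, Rag1, Rag2 and Ptcra had at most 12 counts over all fat libraries. Levels of the others, Dntt, Cd8b1 and Themis, are not given here, so the list as a whole is not shown to be absent. For ob/ob against WT fat on HFD, 0 macrophage markers were higher and 5 lower, and 4 adipocyte markers were higher and 0 lower. Of all genes, 10.1% were higher and 7.5% lower there. The part of these cell types in the result was not tested.

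**Figure D3:**
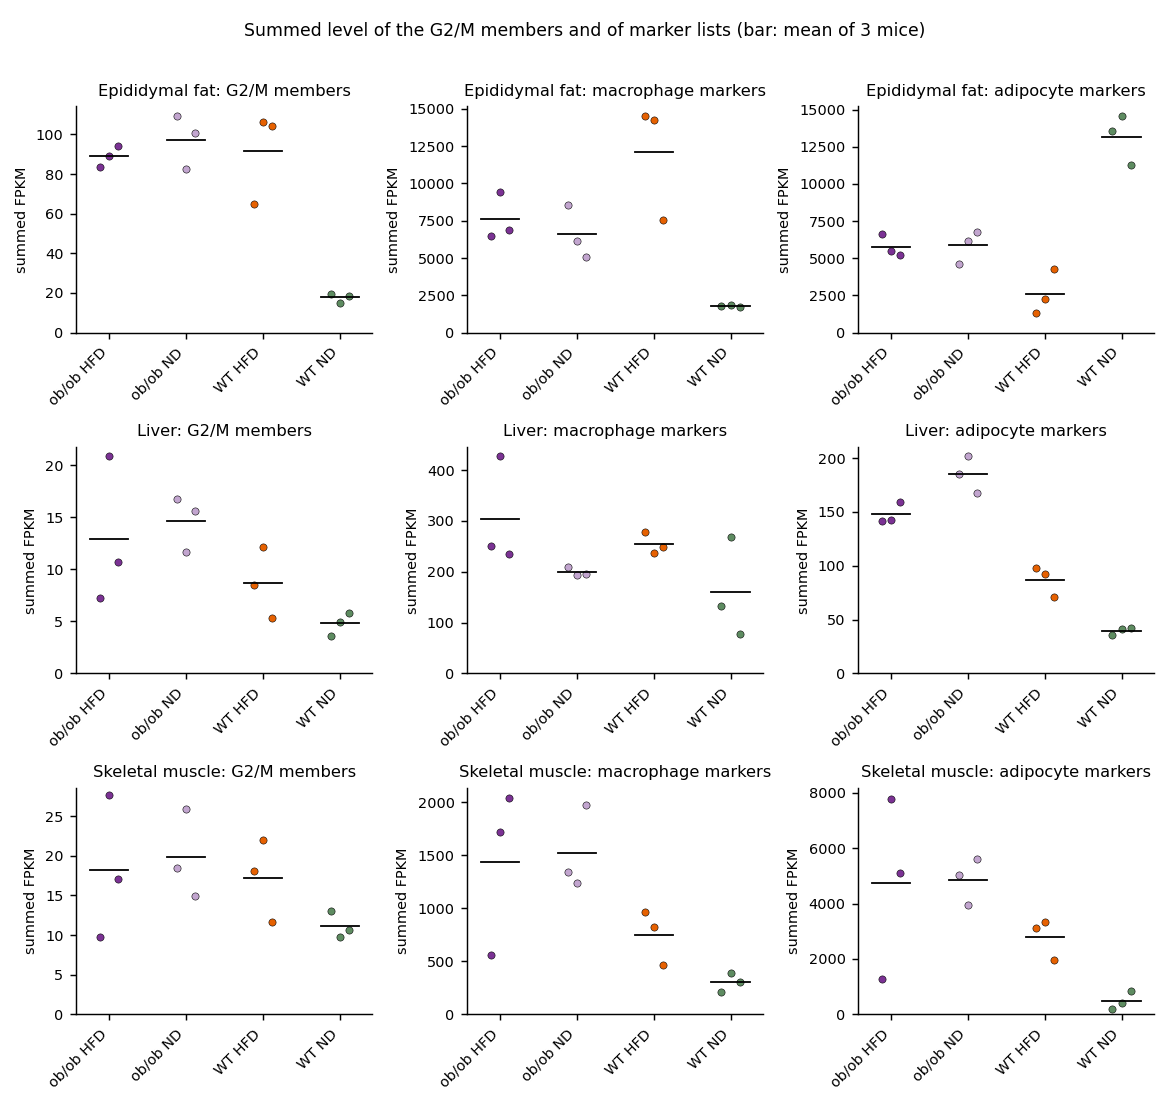
Summed FPKM of the G2/M members, of 14 macrophage markers and of 7 adipocyte markers in each library of epididymal fat, liver and skeletal muscle (points; bars are means of 3 mice). In fat the G2/M sum is 15.2 to 19.6 FPKM in WT ND mice and 65.01 to 109.4 FPKM in the other 3 groups, and the macrophage sum is lowest in the same WT ND mice.

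Other genes of the pathway, from 2 lists that share no gene with the 40, gave like counts in fat. The lists were chosen with earlier results known and were measured in the same libraries. Their counts are therefore not an independent result. Of 59 other mitosis genes tested, 55 were higher and 1 lower in ob/ob than in WT fat on ND. Over all genes these shares were 25.2% and 23%, and the median log2 difference of the mitosis genes was 2.42. Dlgap5, a spindle protein, rose by 3.20 ± 0.26 (adjusted p = 5.29e-06), the kinesin gene Kif22 by 2.09 ± 0.17 (adjusted p = 5.25e-06) and Tacc3, a spindle protein, by 1.94. Of 54 other replication genes, 43 were higher and 0 lower, with a median of 1.18. Brca1, a DNA repair gene, rose by 4.21 ± 0.28 (adjusted p = 1.62e-06), the licensing factor Cdt1 by 2.99 ± 0.23 (adjusted p = 4.14e-06) and the histone chaperone Asf1b by 2.59 ± 0.19 (adjusted p = 3.31e-06). In WT fat, HFD against ND gave 55 higher and 1 lower among the mitosis genes and 41 higher and 2 lower among the replication genes. Of all genes, 28.6% were higher and 30.3% lower in that comparison. In ob/ob fat, HFD against ND gave 0 on both lists by edgeR, as for 0% of all genes.

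In liver the division genes were higher in ob/ob than in WT mice on ND, from a very low base and less evenly than in fat. Of 38 members tested, 23 rose and 1 fell, against 19.3% and 17.1% of all genes, and the median log2 difference was 1.49, or 2.80-fold. Of 25 G2/M members 18 rose, with a median of 1.99, and of 13 G1/S members 5 rose and 1 fell, with a median of 0.44; the difference between the waves was not tested. Cdc6 and Kif11 had too few counts to test. Without WT ND mouse 1 the count of called members was 15.

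Cdk1, the kinase that drives mitosis, had 1.71, 1.41 and 1.55 FPKM in ob/ob ND liver, against 0.502, 0.479 and 0.303 FPKM in WT ND liver. The groups did not overlap and the log2 difference was 1.85 ± 0.25 (adjusted p = 0.000104). Mcm2 had 0.813, 0.747 and 0.913 FPKM in ob/ob ND liver, against 0.248, 0.324 and 0.464 FPKM in WT ND liver, a log2 difference of 1.26 ± 0.21 (adjusted p = 0.000494). Aurkb, the kinase of the passenger complex, had 0.474, 0.215 and 0.388 FPKM in ob/ob ND liver, against 0.0293, 0.0589 and 0.0323 FPKM in WT ND liver. That is 44 counts over the ob/ob ND libraries and 4 over the WT ND libraries, so that the log2 difference of 3.05 ± 0.58 rests on few reads (adjusted p = 0.00131). Rrm2 had 5.86, 7.02 and 6.41 FPKM in ob/ob ND liver, against 2.65, 2.60 and 2.47 FPKM in WT ND liver, a log2 difference of 1.32 ± 0.26 (adjusted p = 0.00172). None of these genes overlapped between the groups.

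All 6 cyclins and CDK1 rose in ob/ob ND liver, with log2 differences from 1.27 for Ccne2 to 2.76 for Ccna2. Foxm1 rose by 2.15, while E2f1 was at -0.14 ± 0.22 (adjusted p = 0.649). Of the helicase genes only Mcm2 and Mcm3 passed, Mcm3 at 0.82 ± 0.19. Pcna, at 0.04 ± 0.09, did not pass (adjusted p = 0.748). The mitotic genes that rose were Mki67, Top2a, Bub1, Bub1b, Aurkb, Kif2c, Cenpe, Tpx2, Nusap1, Cdc20, Ube2c, Prc1 and Racgap1, with log2 differences from 1.56 for Mki67 to 3.05 for Aurkb. Plk1, Aurka, Birc5, Cdca8, Kif20a, Cenpf and Ect2 did not pass, at 0.31 for Cdca8 to 1.41 for Cenpf.

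Tk1 went the other way. It had 2.77, 1.88 and 2.27 FPKM in ob/ob ND liver, against 4.17, 3.46 and 4.15 FPKM in WT ND liver, a fall of 0.77 on the log2 scale (-0.77 ± 0.16, adjusted p = 0.00212). Its annotated span overlaps Afmid and Gm20708 on the opposite strand. Where exons overlap, their reads cannot be told apart from its own in counts without strand, and exon overlap was not examined. Of 28 members tested with no such neighbour, 17 rose and 0 fell. The library scaling factors were 1.019, 1.018 and 1.018 in ob/ob ND against 0.878, 0.920 and 0.903 in WT ND liver. A higher factor lowers the scaled level, so the fall of Tk1 rests in part on this scaling.

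For HFD against ND in WT liver, 7 of 38 members rose and 1 fell, against 12% and 9.87% of all genes, with a median log2 difference of 0.93. Mcm2 had 0.769, 0.849 and 0.653 FPKM in WT HFD liver, against the WT ND values above (1.14 ± 0.21, adjusted p = 0.00269). Mcm3 had 1.21, 1.35 and 1.37 FPKM in WT HFD liver, against 0.622, 0.694 and 0.760 FPKM in WT ND liver (0.92 ± 0.19, adjusted p = 0.00483). Aurkb rose by 2.27 ± 0.64 (adjusted p = 0.0233) and Tk1 fell, at -0.56 ± 0.16 (adjusted p = 0.0235). Ccna2 at 2.07, Tpx2 at 2.16, Bub1b at 1.47 and Top2a at 1.38 also rose. The count of called members was 4 without WT HFD mouse 1, WT ND mouse 2 or WT ND mouse 3, 3 without WT HFD mouse 2 and 2 without WT ND mouse 1. Cdk1 was at 0.71 ± 0.27 and did not pass (adjusted p = 0.0771).

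The remaining liver comparisons held few calls. For ob/ob against WT on HFD, 0 members rose and 1 fell, against 8.61% and 9.85% of all genes. E2f1 had 0.899, 0.794 and 1.43 FPKM in ob/ob HFD liver, against 1.46, 1.92 and 1.62 FPKM in WT HFD liver, a log2 difference of -0.69 ± 0.22 (adjusted p = 0.0429). That call was lost in 11 of 12 fits that left out a library. The count was 7 without ob/ob HFD mouse 1, 2 without ob/ob HFD mouse 3 or WT HFD mouse 2, and 0 without ob/ob HFD mouse 2, ob/ob ND mouse 3, WT HFD mouse 1 or 3, or any WT ND mouse. In ob/ob liver no member was called for HFD against ND by edgeR or DESeq2 (0.377% and 0.536% of all genes), with 3 at an unadjusted p under 0.05. Liver of ob/ob HFD mouse 2 stood out, with a summed G2/M level of 20.9 FPKM beside 7.27 and 10.7 FPKM in the other ob/ob HFD mice; without it, 1 member was called. The interaction was called, as negative, for Mcm3 alone (-1.17 ± 0.26, adjusted p = 0.0181), against 2.2% positive and 3.96% negative over all genes. It was called for 9 members without ob/ob HFD mouse 2, for 3 without WT HFD mouse 3, for 2 without ob/ob ND mouse 2 or WT ND mouse 3, and for none without WT ND mouse 1.

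In liver on ND 5 of 14 macrophage markers were higher and 0 lower in ob/ob mice, against 19.3% and 17.1% of all genes. The same counts held for HFD against ND in WT mice, against 12% and 9.87% of all genes. The sum of these markers was 234 to 428 FPKM in ob/ob HFD, 193 to 210 FPKM in ob/ob ND, 236 to 278 FPKM in WT HFD and 77.7 to 267 FPKM in WT ND liver. The ob/ob ND sums thus lay within the WT ND range. Of 6 hepatocyte markers, 4 were lower in ob/ob than in WT liver on ND and 0 higher, with sums of 41400 to 44600 FPKM in ob/ob ND and 48900 to 52400 FPKM in WT ND mice. The part of these cells in the result was not tested. Of 41 other mitosis genes tested in liver, 18 were higher and 2 lower in ob/ob than in WT mice on ND. Of 42 other replication genes 7 were higher and 5 lower, near or below the shares of all genes (19.3% and 17.1%). Mcm10, a replication factor, fell in ob/ob ND liver (-2.98 ± 0.24, adjusted p = 1.74e-06), as did E2f8, a repressor of the E2F family (-1.46 ± 0.31, adjusted p = 0.00262).

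In skeletal muscle 27 of 39 members were higher and 2 lower in ob/ob than in WT mice on ND, against 26.6% and 18.3% of all genes. The median log2 difference was 2.15, or 4.42-fold, with 2.65 for the 25 G2/M members and 1.13 for the 14 G1/S members. The 2 that fell were Aurka and Ccne2. The library scaling factors split by group here: 1.245, 1.074 and 1.223 in ob/ob ND against 0.759, 0.808 and 0.841 in WT ND muscle. A higher factor lowers the scaled level, so the falls in ob/ob ND muscle rest in part on this scaling. Unscaled levels were not tested.

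Bub1b, whose product delays anaphase until chromosomes are attached, had 0.975, 1.55 and 0.686 FPKM in ob/ob ND muscle, against 0.155, 0.352 and 0.202 FPKM in WT ND muscle. It rose by 2.17 ± 0.39 on the log2 scale (adjusted p = 0.00359). E2f1 had 2.14, 2.24 and 2.07 FPKM in ob/ob ND muscle, against 0.236, 0.450 and 0.384 FPKM in WT ND muscle, a log2 difference of 2.58 ± 0.48 (adjusted p = 0.00391). Aurkb had 0.744, 0.895 and 0.603 FPKM in ob/ob ND muscle, against 0.0562, 0.0301 and 0.0588 FPKM in WT ND muscle. These are 121 counts in ob/ob ND and 5 in WT ND muscle, with a log2 difference of 3.87 ± 0.70 (adjusted p = 0.00362). Bub1 and Birc5 had 3 counts each over the 3 WT ND libraries, and 75 and 160 counts over the 3 ob/ob ND libraries, so no fold is given. For each of these genes the groups did not overlap.

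Aurora A moved against Aurora B in muscle. Aurka had 1.14, 1.65 and 0.930 FPKM in ob/ob ND muscle, against 6.80, 2.91 and 4.79 FPKM in WT ND muscle, and fell (-1.97 ± 0.37, adjusted p = 0.0039). On HFD its values were 1.48, 0.946 and 0.819 FPKM in ob/ob mice, against 3.51, 3.96 and 2.36 FPKM in WT mice, and the log2 difference of -1.61 ± 0.37 did not pass (adjusted p = 0.145). The gene of its activator, Tpx2, had 0.937, 1.25 and 0.637 FPKM in ob/ob ND muscle, against 1.88, 1.19 and 1.78 FPKM in WT ND muscle, and its -0.78 ± 0.35 did not pass (adjusted p = 0.0827). Ccne2 had 1.19, 1.60 and 0.756 FPKM in ob/ob ND muscle, against 2.53, 2.51 and 2.82 FPKM in WT ND muscle, and fell (-1.15 ± 0.26, adjusted p = 0.00694). Its sister gene Ccne1 rose by 3.10. Ccne2 lies across Ints8 on the opposite strand, whereas Aurka overlaps no annotated gene.

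By role, 5 of the 6 cyclins and CDK1 rose in ob/ob ND muscle, as did both transcription factors, both genes of chromatin and topology, and 3 of 4 kinases and checkpoint genes. Of the licensing genes Cdc6, Mcm3, Mcm5 and Mcm6 rose, at 0.98 for Mcm3 to 1.97 for Mcm5, and Mcm2, Mcm4 and Mcm7 did not pass. Rrm2 and Tyms rose, by 2.14 and 1.43, while Pcna at 0.30 and Tk1 at -0.49 did not pass. Ube2c, at -0.09, lies across Tnnc2, an abundant troponin gene of fast muscle on the opposite strand. Cdca8, Kif20a and Prc1 also did not pass. Of 29 members tested with no coding gene on the opposite strand, 24 rose and 1 fell. In a fit of the 6 ND libraries alone, added after the data were seen because the HFD libraries of muscle vary widely, 32 members were called.

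No member passed in the other muscle comparisons by edgeR, where almost no gene of the table did. For ob/ob against WT on HFD, 0 members were called (0.0194% and 0% of all genes), with 7 at an unadjusted p under 0.05 and 1 called by DESeq2. For HFD against ND in WT muscle, 0 were called (0% of all genes in either direction), with 21 at an unadjusted p under 0.05, 8 called by DESeq2 and a median log2 difference of 1.45. E2f1 had 1.53, 1.55 and 0.864 FPKM in WT HFD muscle, all above the WT ND values. For HFD against ND in ob/ob muscle 0 were called by both tools, with 0 at an unadjusted p under 0.05. The interaction gave 0 calls by both tools, with 17 at an unadjusted p under 0.05. Muscle of ob/ob HFD mouse 1 stood apart with an adipocyte marker sum of 1270 FPKM; without it, 7 members were called for ob/ob against WT on HFD and 12 for HFD against ND in WT mice.

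**Figure D4:**
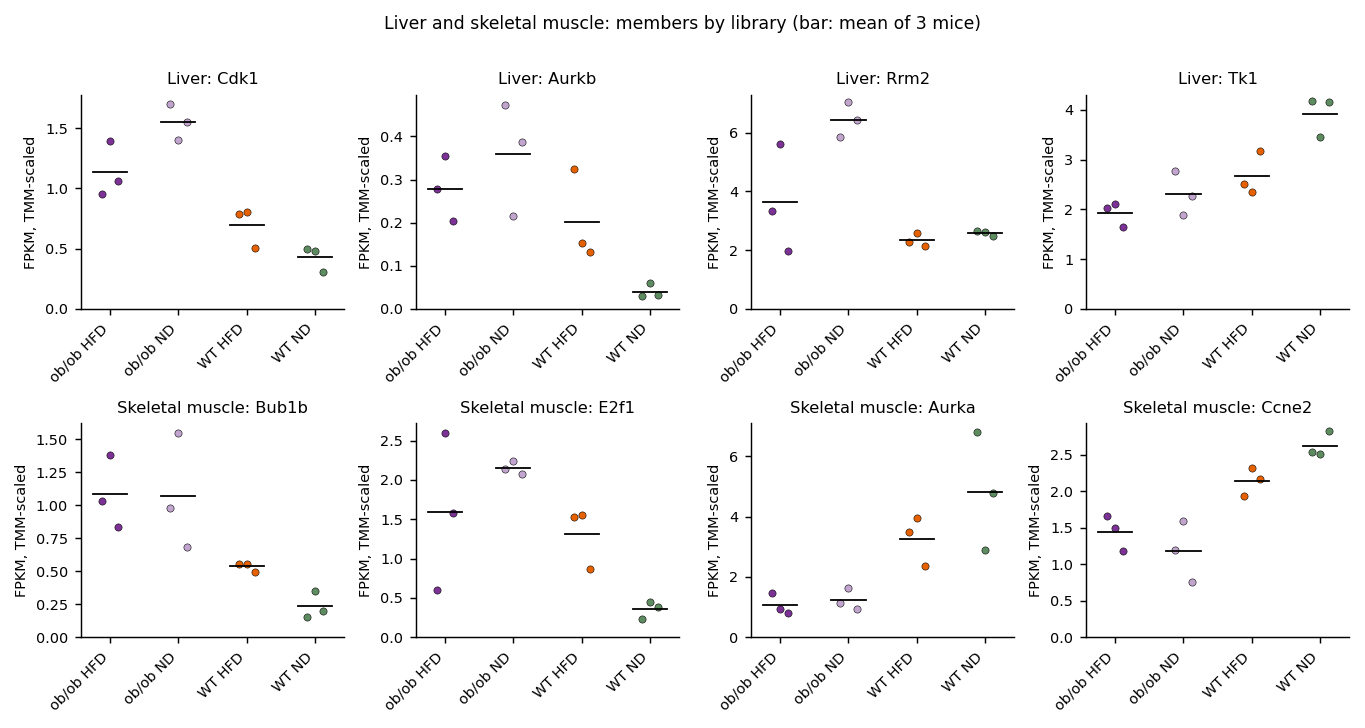
FPKM of 4 genes in liver (top) and 4 in skeletal muscle (bottom) in each library (points; bars are means of 3 mice) for ob/ob HFD, ob/ob ND, WT HFD and WT ND mice. Tk1 in liver and Aurka and Ccne2 in muscle are lower in ob/ob ND than in WT ND mice, and the other 5 genes are higher.

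Markers of fat and macrophages were also higher in ob/ob muscle. All 7 adipocyte and all 14 macrophage markers were higher in ob/ob than in WT muscle on ND. Of all genes tested there, 26.6% were higher and 18.3% lower. The adipocyte sum was 1270 to 7800 FPKM in ob/ob HFD, 3950 to 5620 FPKM in ob/ob ND, 1950 to 3330 FPKM in WT HFD and 177 to 828 FPKM in WT ND muscle. The macrophage sum was 557 to 2040 FPKM in ob/ob HFD, 1240 to 1980 FPKM in ob/ob ND, 462 to 960 FPKM in WT HFD and 214 to 393 FPKM in WT ND muscle. Of 5 muscle fibre markers 1 was lower and 0 higher on ND, with sums of 6610 to 13100 FPKM in ob/ob ND and 22300 to 49900 FPKM in WT ND mice. No satellite cell marker of 4 was called on ND, with sums of 2.87 to 4.78 FPKM in ob/ob ND and 12.1 to 14.9 FPKM in WT ND mice. The part of these cells in the result was not tested. Of 55 other mitosis genes tested 41 were higher and 1 lower in ob/ob than in WT muscle on ND. Of 51 other replication genes 24 were higher and 5 lower, against 26.6% and 18.3% of all genes.

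In aorta 5 of 37 members were higher and 1 lower in ob/ob than in WT mice on ND, against 15.9% and 15.9% of all genes, a share near or below the background. Both E cyclins were among them. Ccne1 had 1.23, 1.02 and 0.898 FPKM in ob/ob ND aorta, against 0.251, 0.235 and 0.296 FPKM in WT ND aorta, a log2 difference of 1.99 ± 0.29 (adjusted p = 0.000444). Ccne2 rose by 1.29 ± 0.28 (adjusted p = 0.00533), Foxm1 by 1.55 ± 0.41 (adjusted p = 0.0129), Ccnb1 by 1.76 ± 0.49 (adjusted p = 0.0165) and Cenpe by 1.63 ± 0.51 (adjusted p = 0.0271). Tyms had 0.740, 0.682 and 0.641 FPKM in ob/ob ND aorta, against 1.04, 1.27 and 0.929 FPKM in WT ND aorta, and fell (-0.65 ± 0.19, adjusted p = 0.0196). Only the calls of Ccne1 and Ccne2 held when each library was left out in turn; without ob/ob ND mouse 2 the count was 3.

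On HFD, 2 members were higher and 0 lower in ob/ob than in WT aorta, against 8.34% and 7.84% of all genes. Nusap1 had 0.579, 1.26 and 0.863 FPKM in ob/ob HFD aorta, against 0.383, 0.516 and 0.275 FPKM in WT HFD aorta (1.18 ± 0.31, adjusted p = 0.0232). Ect2, an exchange factor of cytokinesis, rose by 1.12 ± 0.35 (adjusted p = 0.0452). The count fell to 0 without ob/ob HFD mouse 2 or 3 or WT HFD mouse 1 or 3, and to 1 without any ob/ob ND mouse, WT HFD mouse 2 or WT ND mouse 3. It was 5 without ob/ob HFD mouse 1. No member was called by edgeR or DESeq2 for HFD against ND in WT aorta (2.13% and 2.07% of all genes, 3 members at an unadjusted p under 0.05) or in ob/ob aorta (0% of all genes, 1 member). The interaction gave 0 calls by both tools (0.169% and 0.257% of all genes, 3 members at an unadjusted p under 0.05). Plk1, Bub1 and Kif11 had too few counts to test in aorta. Of 5 mesothelial markers 5 were lower in ob/ob than in WT aorta on ND, against 15.9% of all genes. Sums of the mesothelial markers were 33.8 to 65.9 FPKM in ob/ob ND and 80.5 to 330 FPKM in WT ND mice. Of 14 macrophage markers 5 were higher on ND, against 15.9% of all genes. The part of these cells in the result was not tested.

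Few members were called in heart. On ND, 0 of 30 tested members rose and 4 fell in ob/ob mice, against 6.26% and 6.48% of all genes, with a median log2 difference of -0.53. Mki67 had 0.212, 0.161 and 0.101 FPKM in ob/ob ND heart, against 0.478, 0.294 and 0.564 FPKM in WT ND heart (-1.51 ± 0.42, adjusted p = 0.0267). Mcm2 had 0.558, 0.409 and 0.559 FPKM in ob/ob ND heart, against 0.764, 0.761 and 0.863 FPKM in WT ND heart (-0.64 ± 0.17, adjusted p = 0.0196). Top2a fell (-1.51 ± 0.44, adjusted p = 0.0317), as did Mcm5 (-0.84 ± 0.25, adjusted p = 0.0369). For all 4 genes the groups did not overlap. The count was 0 without ob/ob ND mouse 2 or WT ND mouse 3, and 1 without ob/ob ND mouse 3 or WT ND mouse 1, and DESeq2 gave 2.

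On HFD, 1 of 30 members rose and 3 fell in ob/ob heart, against 8.82% and 8.36% of all genes, a share near or below the background, and DESeq2 called 1. Mcm5 had 0.385, 0.539 and 0.339 FPKM in ob/ob HFD heart, against 0.776, 1.02 and 0.753 FPKM in WT HFD heart (-1.01 ± 0.26, adjusted p = 0.0135). Mcm6 fell (-0.43 ± 0.14, adjusted p = 0.0394), as did Tyms (-0.77 ± 0.26, adjusted p = 0.0481). Ccne1 had 0.514, 0.517 and 0.542 FPKM in ob/ob HFD heart, against 0.315, 0.179 and 0.0706 FPKM in WT HFD heart, and rose (1.43 ± 0.43, adjusted p = 0.0321). The count was 0 without ob/ob HFD mouse 3 or WT HFD mouse 2, 1 without ob/ob HFD mouse 1 and 2 without WT HFD mouse 1. For HFD against ND no member was called by edgeR or DESeq2 in WT heart (0.11% and 0.146% of all genes, 1 member at an unadjusted p under 0.05) or in ob/ob heart (0.00731% and 0.0146%, 4 members). The interaction gave 0 calls by both tools and 0 at an unadjusted p under 0.05, as for 0% of all genes.

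Of 14 macrophage markers 0 were higher and 5 lower in ob/ob than in WT heart on ND, against 6.26% and 6.48% of all genes. The marker sums were 298 to 424 FPKM in ob/ob ND and 436 to 586 FPKM in WT ND mice. On HFD 0 of these markers were higher and 3 lower, against 8.82% and 8.36% of all genes. Sums there were 303 to 431 FPKM in ob/ob HFD and 480 to 582 FPKM in WT HFD mice. The part of macrophages in the result was not tested. In heart Ccnb1, Cdc6, Plk1, Bub1, Aurkb, Cdca8, Kif11, Kif2c, Cenpe and Ect2 had too few counts to test.

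In the brain regions a single member was called in each. In hippocampus Ccne2 was the 1 of 31 members that rose in ob/ob mice, on ND (1.63% of all genes rose and 1.85% fell) and on HFD (0.648% and 0.911%), and none fell. It had 3.18, 2.61 and 2.78 FPKM in ob/ob HFD mice, 2.745, 2.80 and 2.67 FPKM in ob/ob ND mice, 1.51, 1.02 and 1.30 FPKM in WT HFD mice and 1.56, 1.24 and 1.36 FPKM in WT ND mice. All ob/ob libraries lay above all WT libraries, with log2 differences of 0.98 ± 0.16 on ND (adjusted p = 0.015) and 1.16 ± 0.16 on HFD (adjusted p = 0.0133). The overlap of Ccne2 with Ints8 on the opposite strand applies here too. The call on ND was lost without ob/ob ND mouse 3, WT ND mouse 1 or WT ND mouse 2, and that on HFD without ob/ob HFD mouse 1 or WT HFD mouse 2.

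In hypothalamus Mcm2 was the 1 of 30 members that rose in ob/ob mice on ND (2.32% of all genes rose and 2.98% fell), at 1.24, 1.18 and 0.953 FPKM in ob/ob ND mice against 0.649, 0.907 and 0.591 FPKM in WT ND mice. Its log2 difference was 0.65 ± 0.17 (adjusted p = 0.0456), and the call was lost on leaving out any library but that of WT ND mouse 2. On HFD 0 members were called by edgeR or DESeq2 (0.853% and 1.28% of all genes), with 5 at an unadjusted p under 0.05; without WT ND mouse 1 the count was 3. In both regions the diet comparisons and the interaction gave 0 calls by both tools, as for 0% of all genes. Members at an unadjusted p under 0.05 were 2 in WT and 0 in ob/ob mice for the diet in hippocampus, and 1 in WT and 4 in ob/ob mice in hypothalamus. Not tested were Ccnb1, Ccnb2, Cdc6, Bub1, Aurkb, Birc5, Kif11, Kif2c and Ube2c in hippocampus, and Ccnb1, Cdk1, Cdc6, Top2a, Bub1, Aurkb, Kif11, Kif2c, Ube2c and Ect2 in hypothalamus.

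Across tissues of WT mice on ND, levels were compared as TPM, that is per length and summing to the same total in each library. The summed TPM of the members had a median of 183 in epididymal fat (165.5 to 197.8), then 143.9 in hippocampus, 130.5 in hypothalamus, 72.1 in muscle, 71.6 in aorta, 67.01 in heart and 58.4 in liver. Fat stood 2.48 ± 0.31 (SD, n = 3) times above the median of the other tissues in the same mice in TPM, but 1.14 times on TMM-scaled CPM per kilobase over all 84 libraries. Kif11 had a median of 0 TPM in every tissue. Of the other 39 members, 26 had their highest median in fat in TPM and 15 on the other scale, so the place of fat depends on the scale. On both scales 24 of these 39 members were highest in the same tissue. For 16 of these the TPM range of that tissue did not overlap that of the tissue with the next highest median. A further tissue could still overlap.

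Aurka had its highest median in muscle at 8.25 TPM (4.56 to 10.9), against 2.26 TPM in liver, the next tissue. Tpx2 also had its highest median in muscle, at 3.02 TPM (1.87 to 3.06), against 1.53 TPM in fat (1.53 to 1.66), but hypothalamus reached 2.13 TPM and overlapped. Tk1 and Rrm2 were highest in liver, Tk1 at 7.73 TPM (6.78 to 8.06) against 3.76 TPM in muscle and Rrm2 at 4.91 TPM (4.80 to 5.10) against 2.73 TPM in fat. The overlap of Tk1 with Afmid and Gm20708 on the opposite strand applies here too. Cenpf, a kinetochore gene, was highest in heart at 1.97 TPM (1.30 to 2.39), against 0.301 TPM in fat. Ccne1 had 14.5 TPM in hippocampus (14.1 to 16.8) and 13.4 TPM in hypothalamus (12.9 to 15.9), which overlapped, and 3.33 TPM in fat. Mki67 was highest in fat at 2.94 TPM (1.77 to 3.14), against 0.894 TPM in heart. Pcna was the highest member in every tissue, at 19.5 TPM in liver to 49.8 TPM in hippocampus.

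**Figure D5:**
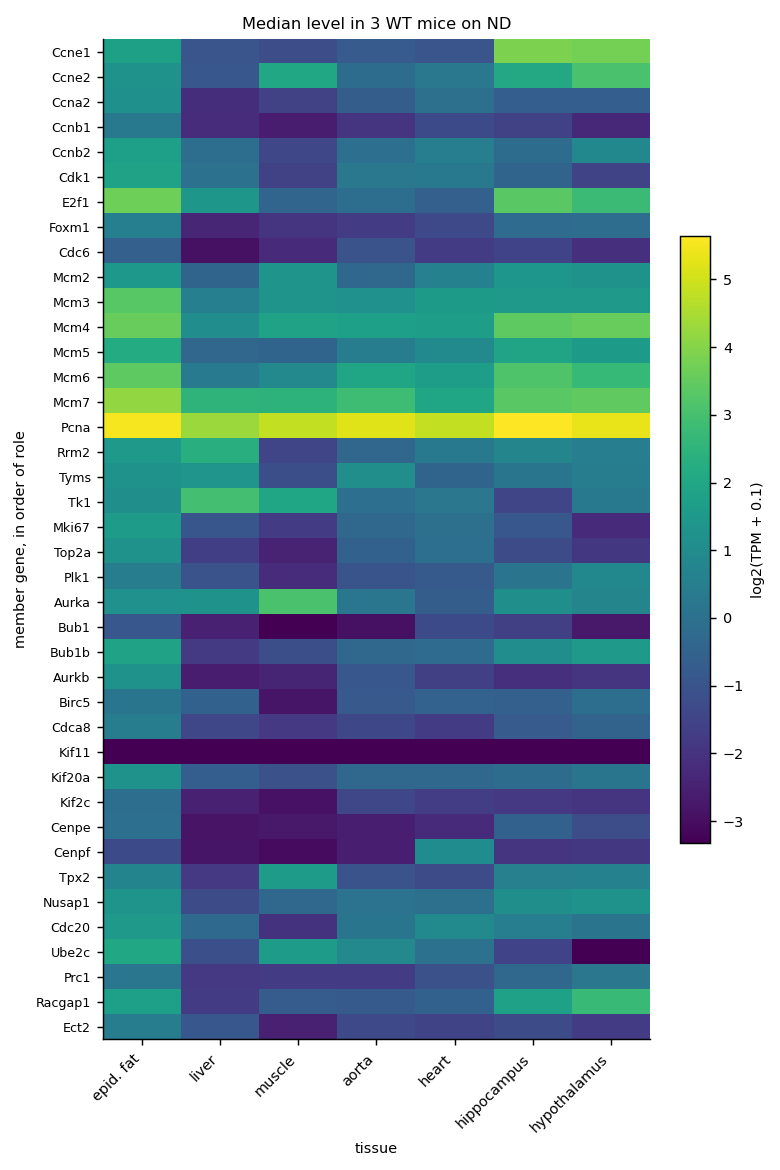
Median level of the 40 genes (rows, by role) in 7 tissues (columns) of WT mice on ND, as log2 of TPM plus 0.1. Pcna is the brightest row in every tissue, Aurka stands out in skeletal muscle, Tk1 and Rrm2 in liver, Cenpf in heart and Ccne1 in both brain regions. Tpx2 has its highest median in skeletal muscle, but its range there overlaps that of hypothalamus.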

How the data were processed

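RNA from 7 tissues of 12 mice was sequenced, per the labels' protocols, from TruSeq libraries on a NextSeq, with TRIzol extraction (the protocol text names hearts for all samples). Per the submitters' processing notes, the tools were Trimmomatic 0.36, HISAT2 2.0.5 and featureCounts 1.5.0-p2 with build GRCm38. The deposited values are whole-number counts per gene, which featureCounts 1.5.1 wrote without a strand option, per the file headers, beside exon lengths. Of 49671 genes, 49326 had a symbol in the annotation used here. Groups came from the genotype, diet and tissue labels; 3 mice a group were separate animals per the titles.

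Each tissue was fitted apart on its 12 libraries with edgeR 4.0.16 in R 4.3.3 (filterByExpr with smallest count 10 and total 15, TMM, a mean per group, quasi-likelihood F test). P-values were adjusted by Benjamini-Hochberg over all genes tested in that tissue and comparison; members at an adjusted p under 0.05 were called. SE is the log2 difference divided by the square root of F. FPKM uses the TMM-scaled library size and TPM the plain counts. TMM factors were 0.759 to 1.30 in muscle, 0.878 to 1.15 in liver and 0.901 to 1.13 elsewhere. On ND all WT factors lay below all ob/ob factors in muscle and liver, and above them in heart. Each count was recomputed without the filter, with a replicate block, with each library left out, with size factors of DESeq2 1.42.0 and with its own test. The procedure was checked on simulated counts.

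The members, the lists and the tests were chosen with earlier results of these data known. Full statistics went mainly to at most 4 members per tissue and comparison, those with the smallest p past the threshold. They also went to called members against the majority direction. Further members are given by value, some with SE and adjusted p, among them E2f1 and Foxm1 in fat. Of the pathway lists at most 3 genes per list, tissue and comparison were named, apart from the brake list. The 17 genes of the brake list were looked at in full after their values were seen. A p here sets a difference of group means against the spread between mice within groups, estimated over all 12 libraries of the tissue.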

Additional observations from a re-analysis of the deposited data

Results flagged for a closer look

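In epididymal fat the diet effect differed between ob/ob and WT mice by a test of the interaction for 37 of 39 members (edgeR quasi-likelihood test). The log2 interaction was -3.23 for Tpx2, -2.20 for Pcna, -2.74 for Prc1 and -3.82 for Bub1. In liver the diet effect differed for 1 member, Mcm3, with a log2 interaction of -1.17.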

How the results depend on the processing

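In epididymal fat the counts of called members for ob/ob against WT on ND (38), HFD against ND in WT mice (38) and the interaction (37) stayed between 37 and 39 under all alternatives, and in muscle the 29 members on ND stayed between 24 and 32. No called member changed sign. Elsewhere counts moved. With a library left out, counts ranged from 0 to 3 in fat for ob/ob against WT on HFD (called: 2), 15 to 27 in liver on ND (24), 0 to 7 in liver on HFD (1), 2 to 11 in liver for HFD against ND in WT mice (8), 0 to 1 in liver for HFD against ND in ob/ob mice (0) and 0 to 9 for the liver interaction (1). For ob/ob against WT they ranged from 0 to 7 in muscle on HFD (0), 3 to 8 in aorta on ND (6), 0 to 5 in aorta on HFD (2), 0 to 6 in heart on ND (4), 0 to 4 in heart on HFD (4), 0 to 1 in hippocampus on ND and on HFD (1 each), 0 to 1 in hypothalamus on ND (1) and 0 to 3 in hypothalamus on HFD (0); for HFD against ND in WT muscle they ranged from 0 to 12 (0). DESeq2 gave 4 in fat on HFD, 2 for the liver interaction, 1 in muscle on HFD, 8 in muscle for the diet in WT mice, 1 in aorta on HFD, 2 and 1 in heart on ND and on HFD, and 2 in hypothalamus on ND. DESeq2 size factors in edgeR gave 3 in fat on HFD. Without a filter on low counts there were 1 in fat on HFD, 8 in liver on HFD, 14 in liver for the diet in WT mice, 1 for the diet in ob/ob liver, 10 for the liver interaction, 5 in muscle for the diet in WT mice, 7 in heart on ND and 2 for the diet in ob/ob heart. The replicate block uses mouse numbers that name different animals in each group. It gave 0 in liver on HFD, 4 in aorta on HFD, 2 in heart on HFD and 0 in hypothalamus on ND. Same-numbered pairs with a correlation over 0.1 were 6 of 18 in fat and in aorta, and 4 of 18 in muscle and in hippocampus. They were 3 of 18 in liver and in hypothalamus and 2 of 18 in heart. The highest correlation was 0.477, in fat. Whether libraries of the same number shared a processing step was not tested. On TMM-scaled CPM per kilobase over all libraries, fat stood 1.14 times above the other tissues and held the highest level of 15 members. Of 197 calls on single members, DESeq2 lost 8, its size factors 1, no filter 5 and the block 8, and with each library left out in turn 2174 calls were kept and 190 lost. The cause of these changes was not tested. Depth limits the liver and muscle values most, where some tested members have under 12 counts over a group of 3 libraries, and in heart, hippocampus and hypothalamus 9 or 10 members had too few counts to test.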

Other observations

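Genes that hold the cycle back did not move as a block in fat. Of 17 such genes, 7 were higher and 3 lower in ob/ob than in WT fat on ND, against 25.2% and 23% of all genes. For HFD against ND in WT fat 6 were higher and 5 lower, against 28.6% and 30.3% of all genes. The list was not tested against these shares. Cdkn2a, which encodes the inhibitor p16 and the ARF protein, was higher by 2.36 ± 0.35 on the log2 scale in ob/ob ND fat (adjusted p = 0.000276, edgeR quasi-likelihood test). Mdm2, the p53 ligase gene, was higher by 1.14 ± 0.13 (adjusted p = 4.69e-05) and Cdkn1a, which encodes p21, by 0.94 ± 0.21 (adjusted p = 0.00377). The antiproliferative gene Btg2 was lower (-2.05 ± 0.40, adjusted p = 0.00152), as was the CDK4/6 inhibitor gene Cdkn2c (-0.73 ± 0.21, adjusted p = 0.0126). Cdkn2c was lower also on HFD than on ND in WT fat (-1.69 ± 0.21, adjusted p = 6.18e-05), but higher in ob/ob than in WT liver on ND (1.89 ± 0.23, adjusted p = 4.35e-05).

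The cyclins and kinases of G1 also split. Of 6 such genes, 3 were higher and 1 lower in ob/ob than in WT fat on ND, against 25.2% and 23% of all genes. Cdk6 was higher by 1.79 ± 0.16 (adjusted p = 1.22e-05) and Ccnd1 by 1.10 ± 0.20 (adjusted p = 0.000986), while Ccnd3, the cyclin D gene of many differentiated cells, was lower (-0.83 ± 0.12, adjusted p = 0.000243). In muscle on ND 4 of 6 were higher and 0 lower in ob/ob mice, against 26.6% and 18.3% of all genes. Ccnd2 was higher there by 3.49 ± 0.57 (adjusted p = 0.00326). In aorta on ND 2 of 6 were higher and 1 lower in ob/ob mice, against 15.9% and 15.9% of all genes. The list was too short to set apart from these shares and was not tested against them. Ccnd2 was higher by 1.87 ± 0.17 (adjusted p = 1.99e-05) and Ccnd1 by 1.54 ± 0.24 (adjusted p = 0.000695), while Cdk4, a kinase partner of the D cyclins, was lower (-0.47 ± 0.13, adjusted p = 0.0145).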
